A study of Homo sapiens with 7 samples.

Results

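K562, a human suspension line from chronic myeloid leukaemia, was profiled for replication timing on a sparse array, titled 44k, and on a dense array, titled 180k with a new cell sorting method. These are 2 of the 7 two-colour arrays of the series, chosen by their titles, with 1 array in each group. For both arrays the labels give unsynchronised K562 cells with no treatment other than a bromodeoxyuridine (BrdU) pulse of 50 µM for 2 h, after which 80000 fixed cells were sorted by DNA content into early and late S phase. Nascent DNA was recovered with an antibody against BrdU and amplified over the whole genome. The early fraction carried Cy3 (green) and the late fraction Cy5 (red). The title of the 44k array does not name its sorting method, and the labels do not say whether the arrays shared a culture, a sort or a labelled DNA. A difference between them can therefore come from the probe set, the sort, the labelling or the hybridisation, which cannot be told apart here. The file headers name the 44k array a SurePrint G3 design of 62976 features, against 180880 features on the other array.

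Eukaryotic chromosomes replicate in large domains whose origins fire at a similar time in S phase. Early domains are mostly gene-rich and open, and late domains are mostly gene-poor and tied to the nuclear lamina. Between them the timing changes over transition regions. A microarray reads this as the ratio of nascent DNA from early and late S phase at each probe, so the distance between probes limits the smallest domain that can be seen.

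Timing was expressed as log2 of green over red after background correction, so that positive values mean early and negative values late. Each array was centred on the median of the autosomal probes that both designs carry. The 180k array placed 161201 probes on the autosomes with a median spacing of 13.0 kb, and the 44k array placed 52116 with a median spacing of 41.2 kb. By probe name, 47694 probes were shared, which is 91.5% of the 44k probes and 29.6% of the 180k probes. All 47694 had the same position and the same sequence in both tables. The shared probes lay within named genes more often (82.2%) than the probes found on the 180k array alone (68.9%).

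Probes are designed oligonucleotides of at most 60 bases, and the following ones, in build hg19 and as deposited, show what a single shared oligonucleotide can and cannot hold. The first pair comes from the beta-globin cluster, whose genes encode the beta-like chains of haemoglobin; no base is marked, because the whole oligonucleotide hybridises.
HBB (chr11:5247723-5247780): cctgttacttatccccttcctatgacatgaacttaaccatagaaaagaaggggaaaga
HBD (chr11:5254133-5254192): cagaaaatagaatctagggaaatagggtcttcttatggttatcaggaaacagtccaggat
The HBB probe read 0.76 on the 180k array and -0.12 on the 44k array. The HBD probe, a few kilobases away, read 0.90 and 0.85. Each gene had no other probe on either array, so the cluster was early on both arrays by HBD and changed sign by HBB. The HBB sign differed in 6 of 7 settings and not with centring on the mean.

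A second set of probes flanks the border with the largest step on the 180k array among those that both arrays called, on chromosome 6 between ID4, which encodes an inhibitor of DNA binding, and MBOAT1, which encodes an acyltransferase. They are the last 2 shared probes before the middle of that border and the first 2 after it.
ID4 (chr6:19840672-19840729): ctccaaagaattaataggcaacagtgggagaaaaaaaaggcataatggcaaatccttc
before the border, no gene named (chr6:19936116-19936175): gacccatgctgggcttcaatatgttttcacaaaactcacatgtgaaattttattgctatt
after the border, no gene named (chr6:20031401-20031460): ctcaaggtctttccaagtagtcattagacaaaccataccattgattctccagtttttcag
MBOAT1 (chr6:20102377-20102436): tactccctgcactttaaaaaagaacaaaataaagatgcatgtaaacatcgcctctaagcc
Across these 4 probes the 180k array read -2.27, -0.92, 0.51 and 0.35, and the 44k array read -1.37, -0.43, 0.59 and 0.24. Both arrays changed sign between the same pair of probes, and the 44k array was less negative on the late side.

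Over all shared probes the values correlated with Pearson's r of 0.946 (n = 47694 probes of the same 2 arrays, which are not independent), and 9.70% had opposite signs. Of the 14836 shared probes below -1 on the 180k array, 0.0337% were early on the 44k array, and of the 6381 above 1, 0.345% were late. By base composition, opposite signs were found in 8.88% of 37975 probes of 35 to 40% GC, in 14.4% of 4456 probes of 40 to 45% and in 17.6% of 1052 probes of 45 to 50%. Among probes within 0.5 of zero on the 180k array the shares in these classes were 29.1%, 30.2% and 30.1%, with overlapping intervals. The 44k array was dimmer. The median probe stood 117 units above the negative controls in green and 102 in red, against 188 and 214 on the 180k array. Red was well above background, by the scanner software, for 8.82% of the 44k probes and 60.1% of the 180k probes. The share with opposite sign was 8.67% of 4235 shared probes whose red signal passed on the 44k array and 9.80% of the 43459 whose red signal did not.

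The identity of the cells was read from DNA copy number, in the mean log2 signal of both channels relative to the median probe. MTAP, in a chromosome 9 segment that K562 has lost, stood at -1.90 (5 probes) on the 180k array and -1.49 (3 probes) on the 44k array, in both cases under the 5th percentile of all probes (-1.28 and -1.01). CDKN2A of the same segment stood at -1.69 and -0.70, so on the 44k array it was not under that percentile, and CDKN2B had no named probe. ABL1 and BCR, amplified in K562 as a fusion, stood at 2.28 and 1.43 on the 180k array and at 1.46 and 1.23 on the 44k array. An upper percentile of all probes, whose level is not stated here, stood at 1.72 on the 180k array and 1.51 on the 44k array. Only ABL1 on the 180k array lay above it, so on the 44k array neither mean did. Single probes spread widely. ABL1 probes ranged from -1.04 to 5.10 on the 180k array and from -0.96 to 2.66 on the 44k array. BCR probes ranged from -0.67 to 3.45 and from -0.02 to 2.73.

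The genes that the study used as timing controls in quantitative PCR, per the labels, were BMP1 (early), which encodes a procollagen-processing protease, and DPPA2 (late), a gene of pluripotent cells. DPPA2 was late on both arrays. Its probes read -2.08 and -2.34 on the 180k array, and the first of them, the only DPPA2 probe on the 44k array, read -1.63 there. BMP1 had 3 probes on the 180k array, which read 0.71, 1.06 and -0.79, and the 44k array carried only the third, which read -2.06 with neither channel well above background. The 250-kb window that holds BMP1 averaged 0.57 over 24 probes on the 180k array and -0.04 over 8 probes on the 44k array. By these measures BMP1 was early on the 180k array and not on the 44k array, but the measures are not separate. The 44k window mean includes the only BMP1 probe of that array, which was late on both arrays (-0.79 and -2.06). The sign of that window without this probe was not tested. The sign of the gene's mean differed between the arrays in each of 7 settings of background and centring. Those means compare 3 probes on the 180k array with 1 of the same probes on the 44k array.

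Coverage was unequal along the genome. A window of 250 kb counted as measured where an array had at least 3 probes in it. The 180k array measured 10585 such windows on the 22 autosomes and the 44k array 8436 of the same windows, with a median of 18 and 5 probes. The 2149 windows that the 44k array did not measure (20.3%) were late in 90.3% of cases by the 180k array, while 59.4% of all windows were late. The share measured was 96.1% among windows between 0.5 and 1 on the 180k array, 86.5% between -1 and 0, 67.5% between -2 and -1 and 62.1% below -2. The mean number of 44k probes was 6.42 in windows between 0.5 and 1 and 3.43 in windows below -2. With windows of 500 kb, 132 of 5348 (2.47%) were not measured.

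**Figure D1:**
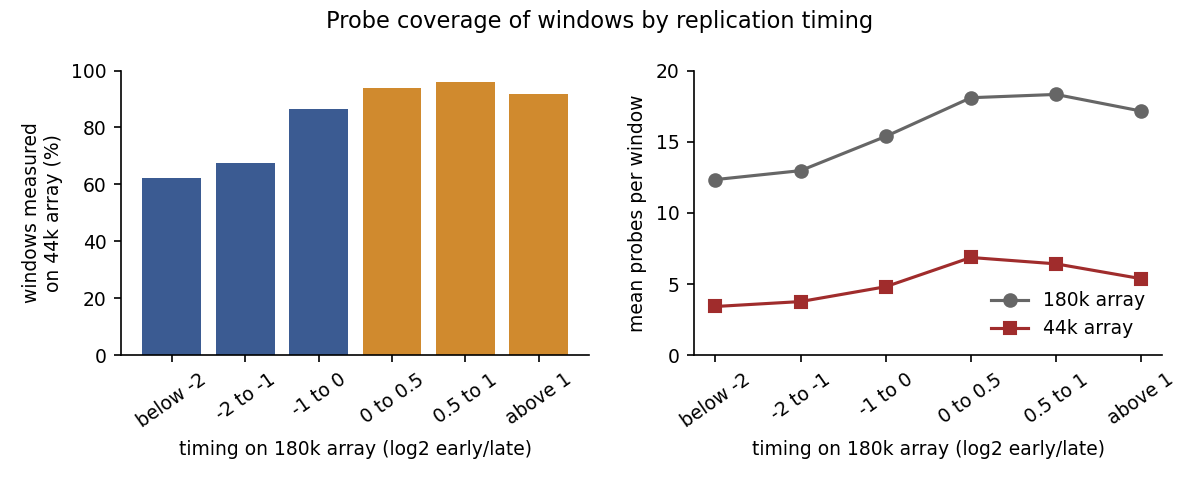
Left, percentage of the 180k array's 250-kb windows that also held at least 3 probes of the 44k array, by timing on the 180k array (log2 early over late; blue late, orange early). Right, mean number of probes of each array in the same windows; the measured share fell from 96.1% between 0.5 and 1 to 62.1% below -2.

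The unmeasured windows formed 1055 runs, of which 141 spanned 1 Mb or more. The longest ran for 3500 kb on chromosome 11 (chr11:36750001-40250000) around LRRC4C, which encodes a synaptic adhesion protein; it was chosen after its values were seen. It averaged -2.23 on the 180k array over 88 probes, and the 44k array had 21 probes spread over its 14 windows. The next longest, 3000 kb on chromosome 2 (chr2:193250001-196250000), averaged -2.20.

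This thinned the large late domains most. On all its own windows the 180k array had 1399 domains, a domain being a run of adjacent measured windows with the same sign. The 44k array measured every window of 820 of them (58.6%), some windows of 536 and no window of 43. Among domains of 2 Mb or more, every window was measured in 112 of 186 early domains (60.2%) and in 30 of 264 late domains (11.4%). Among single-window domains, 9 of 95 early and 21 of 108 late ones had no measured window. Where the 44k array did measure a domain of 2 Mb or more, its mean had the sign of the 180k array in all 450, early and late. For domains of 250 kb this held in 128 of 173 (74.0%), for those of 500 to 750 kb in 352 of 367 (95.9%) and for those of 1 to under 2 Mb in 365 of 366 (99.7%).

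Sign was compared in the 8436 windows measured on both arrays. The values correlated with r = 0.973 across windows, as a description, and from 0.928 on chromosome 22 to 0.980 on chromosome 21 within chromosomes. In 410 windows the sign was opposite, 4.86% (exact 95% interval 4.41 to 5.34%; all intervals here cover only the counting of windows, domains, borders or genes, since no array was repeated). With the deposited log ratio the share was 8.46%. These windows were close to zero, with a median absolute value of 0.17 on the 180k array against 0.89 in the other windows. Within 0.25 of zero, 101 of 494 early windows (20.4%) and 168 of 331 late windows (50.8%) changed sign. Between 0.5 and 1 the shares were 1.14% of 2540 early and 1.12% of 538 late windows. Beyond 1 in either direction no window changed sign. Counting alone allows up to 1.41% of the 260 early windows above 1, 0.258% of the 1428 late windows between -2 and -1 and 0.210% of the 1754 below -2.

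**Figure D2:**
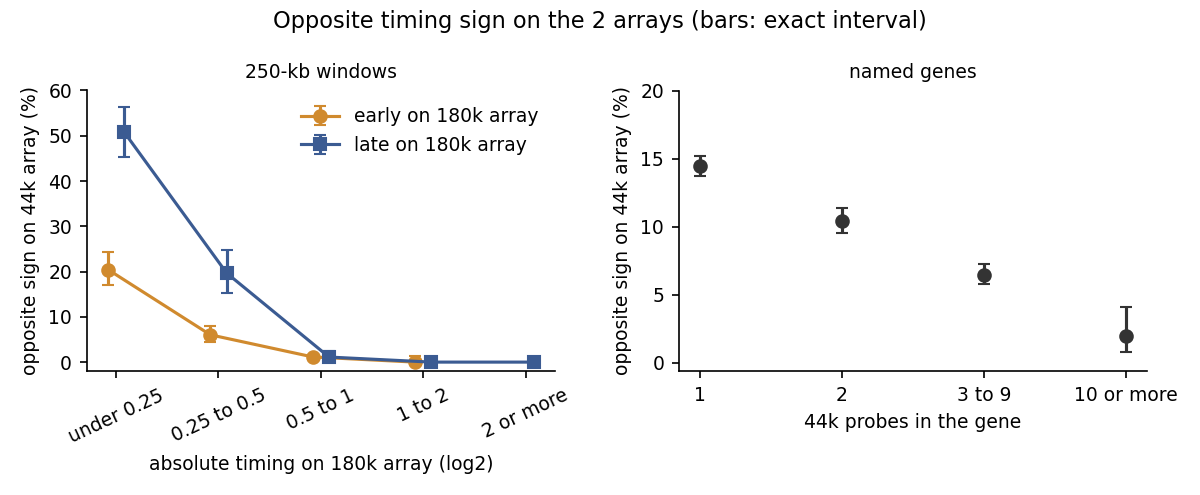
Percentage of 250-kb windows (left, by absolute timing on the 180k array, early and late apart) and of named genes (right, by number of 44k probes) whose sign on the 44k array was opposite; bars are exact 95% intervals. The share fell from 50.8% of the weakest late windows to 0 of those beyond 1, and from 14.5% of genes with 1 probe to 2.01% of genes with 10 or more.

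The 44k profile was narrower. The SD of windows was 1.26 on the 180k array and 0.92 on the 44k array, and the slope of the 44k values on the 180k values was 0.71. Windows late on the 180k array averaged -1.60 there and -1.04 on the 44k array. Early windows averaged 0.62 and 0.53. A difference of at least 1 was found in 319 windows (3.78%). In 318 of them (3.77% of all windows) the 44k array was the higher and in 1 (0.0119%) the lower. This split depends on where zero is set: centred on the mean of the shared probes 75 windows were higher and 15 lower by at least 1, and centred on the median of each array's own probes 58 were higher and 17 lower. On the shared probes alone 64 windows were higher and 0 lower, 0.819% in all. The other centrings moved the median difference of all genes from 0.06 to -0.12 and -0.15. Centred on the mean, late windows averaged -1.41 on the 180k array and -0.98 on the 44k array, and early windows 0.90 and 0.65. Centred on each array's own median, they averaged -1.46 and -1.07 when late and 0.84 and 0.55 when early. Whether the narrowing was in proportion larger on the late or on the early side therefore depends on where zero is set. How the log ratio was made changed this width: the slope ranged from 0.61 with the deposited log ratio to 0.79 with a background offset of 0. Centring does not enter the slope. Red, which carries the late DNA, was dimmer on the 44k array as given above, and its part in the narrower range was not tested.

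Among the windows with the largest differences, the window that holds ANKRD30A on chromosome 10 (chr10:37250001-37500000) read -2.33 over 13 probes on the 180k array and -0.79 over 4 probes on the 44k array. A window of chromosome 13 with no named gene (chr13:81250001-81500000) read -2.92 and -1.40. The single window at least 1 lower on the 44k array lay on chromosome 4 (chr4:153500001-153750000) with TMEM154, which encodes a membrane protein, and ARFIP1. It read 0.52 over 16 probes on the 180k array and -0.53 over 4 probes on the 44k array. Those 4 probes read -2.39, 0.22, 0.06 and -0.02, so a single TMEM154 oligonucleotide lay far below the others, with neither channel well above background. The 180k array read -0.91 at that same oligonucleotide. It is printed here because it set the sign of the window.
TMEM154 (chr4:153575250-153575309): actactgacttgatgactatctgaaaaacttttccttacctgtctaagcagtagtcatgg
The next lowest window on the 44k array relative to the other, in MACF1 (chr1:39500001-39750000), a cytoskeletal crosslinker gene, read 1.01 over 18 probes and 0.04 over 5.

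Domains were then called on both arrays in the 8436 common windows, where a gap in coverage ends a domain and is not a border. The 180k array had 2082 domains (753 early, 1329 late) and the 44k array 2234 (833 early, 1401 late), with a median length of 750 kb and 500 kb. A domain was counted as kept if the other array had a domain of the same sign and each covered at least 50% of the other. Of the 180k domains, 1948 (93.6%, 92.4 to 94.6%) were kept on the 44k array, and they held 95.2% of the length. For 1514 (72.7%) the extent was the same to the window.

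Small domains were lost most often. Of the domains of a single 250-kb window 478 were kept (85.1%, 81.8 to 87.9%), of 729 domains of 500 to 750 kb 706 (96.8%, 95.3 to 98.0%), of 509 domains of 1 to under 2 Mb 492 (96.7%, 94.7 to 98.0%) and of 282 domains of 2 Mb or more 272 (96.5%, 93.6 to 98.3%). The interval of the smallest class lay below those of the others, and the intervals of the other classes overlapped. With a stricter reciprocal overlap of 80% the smallest class no longer had the lowest share: 78.1% of it was kept, against 74.5%, 83.9% and 78.7% of the larger classes in order of size. For domains of up to 750 kb this rule demands the same extent to the window, while longer ones may differ by a window. With a running median over 3 windows the smallest and the next class stood at 91.8% and 91.7%. That median gives a single window between windows of the other sign their sign, and it leaves windows beside a gap unsmoothed. The smallest class, 402 domains after smoothing, is therefore another set, and its share does not bear on the small domains that were smoothed away. Among single-window domains 78.1% of 128 early and 87.1% of 434 late ones were kept, an order that turned among those with a border at both ends (65.6% of 64 early and 58.5% of 65 late ones, with overlapping intervals). The 134 lost domains were weak, with a median absolute value of 0.23 on the 180k array against 0.93 for the kept ones. In 72 of them the mean on the 44k array had the opposite sign, here called absorbed, and 68 of these 72 were single windows. Of the 72, 39 had a border at both ends. The rest ended at a coverage gap or a chromosome end on at least 1 side. In the other 62 lost domains the sign held but the domain was merged with a neighbour or split. In these 250-kb windows no domain of 1 Mb or more was absorbed. With windows of 500 kb, 1 of 368 domains of 1 to under 2 Mb and 1 of 508 of 2 Mb or more were absorbed.

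The coverage gaps cut many long domains into short pieces that end at a gap rather than at a border, and such pieces count above. Restricted to the 596 domains with a border at both ends, a choice made after the data were seen, 520 (87.2%, 84.3 to 89.8%) were kept. By size the shares were 62.0% of 129 single-window domains (53.1 to 70.4%), 93.6% of 219, 95.1% of 142 and 94.3% of 106. Domains just under the overlap rule (40 to 50%) numbered 13, with a median of 2250 kb, and those just over it (50 to 60%) numbered 136, with a median of 500 kb.

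In the other direction, 1948 of the 2234 domains of the 44k array (87.2%, 85.7 to 88.6%) were kept on the 180k array. By size these were 72.4% of 682 single-window domains, and 91.6% of 771, 95.5% of 516 and 96.2% of 265 in the larger classes. Of the 44k domains not kept, 157 had a mean of the opposite sign on the 180k array. The other 129 had the same sign there but another extent. Among single-window 44k domains with a border at both ends 91 of 217 (41.9%, 35.3 to 48.8%) were kept on the 180k array. With windows of 500 kb the 180k array had 1169 domains and the 44k array 1231. Of the former 94.1% (92.6 to 95.4%) and of the latter 89.4% (87.5 to 91.0%) were kept. Among 180k domains of a single 500-kb window, 141 of 152 early (92.8%) and 115 of 141 late ones (81.6%) were kept.

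**Figure D3:**
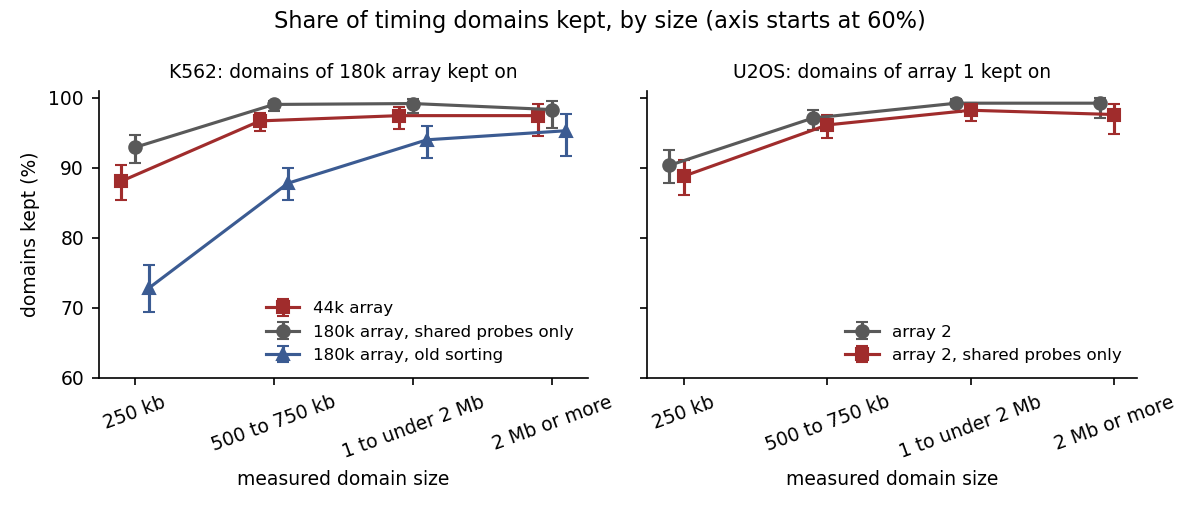
Percentage of timing domains kept (same sign and at least 50% reciprocal overlap), by domain size in 7808 windows of 250 kb common to the 5 arrays drawn; bars are exact 95% intervals and the axis starts at 60%. Left, K562 domains of the 180k array on the 44k array, on the 180k array's own shared probes and on the 180k old-sorting array; right, U2OS automated array 1 on array 2, with all and with shared probes. For the 44k array the share was 88.0% at 250 kb and 97.4% at 2 Mb or more.

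The kept share was set beside 3 comparators in the 7808 windows measured on all the arrays involved. There the 44k array kept 94.2% of 2207 K562 domains (93.1 to 95.1%). The 180k array reduced to the shared probes, which has the sparse probe set and no other hybridisation, kept 97.0% (96.2 to 97.7%). Its spots are among those that called the domains, so part of this share is built in. The 180k array after the old sorting method, a full probe set from another sort, kept 85.1% (83.5 to 86.6%). For single-window domains the shares were 88.0% (85.4 to 90.3%), 92.9% (90.7 to 94.7%) and 72.8% (69.3 to 76.1%). In U2OS, an osteosarcoma line, automated array 2 kept 95.7% (94.7 to 96.5%) of the 2005 domains of automated array 1, the study's own replicate pair on dense arrays, and 94.4% (93.3 to 95.4%) when reduced to the shared probes. The intervals of the 44k array and of this pair overlapped. The old-sorting array was dimmer still in green, with a median of 30.4 units above the negative controls. In red it was not, at 113 units against 102 on the 44k array. Its red was well above background for 76.2% of probes, against 8.82% on the 44k array.

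Lengths of named domains are those in the common windows, where coverage gaps, mostly late, end a domain; with windows of 500 kb the longest domain was 21000 kb. Within this limit the longest early domain of the 180k array spanned 8.75 Mb of chromosome 22 (chr22:35250001-44000000), with RBFOX2, a splicing factor gene, and TNRC6B, a gene of microRNA silencing. It averaged 0.45 on the 180k array and 0.36 on the 44k array, which split it so that the longest piece covered less than 50%. The third longest, on chromosome 17 (chr17:72000001-79750000, RPTOR, a subunit gene of the mTORC1 kinase complex), averaged 0.45 and 0.32 and was split too. The second longest, on chromosome 20 (chr20:29750001-37750000, ITCH, a ubiquitin ligase gene), averaged 0.71 and 0.55 and was kept. The 3 longest late domains in the common windows were kept. The longest (chr7:108250001-116000000) holds IMMP2L, FOXP2 and DOCK4 and read -2.28 over 597 probes and -1.50 over 167. The next (chr7:121000001-127250000), with the glutamate receptor gene GRM8, read -2.27 and -1.53, and the third (chr18:71750001-77250000), with ZNF407 and MBP, the myelin basic protein gene, read -1.43 and -0.94.

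The strongest lost domains kept their sign and changed their extent. Among single windows these were a late window on chromosome 4 (chr4:112750001-113000000), at -1.48 and -0.91, and an early one on chromosome 7 with LRGUK and SLC35B4 (chr7:133750001-134000000), at 0.63 and 0.72. At 500 to 750 kb they were a late domain with SCG2, a neuroendocrine granule protein gene (chr2:224000001-224500000), at -1.09 and -0.74, and an early one with PHLPP1 and TNFRSF11A (chr18:60000001-60500000), at 0.77 and 0.74. At 1 to under 2 Mb they were a late domain with PCNX and MAP3K9 (chr14:70500001-71500000), at -0.96 and -0.60, and an early one with ADAMTS14 and SGPL1 (chr10:71750001-72750000), at 0.89 and 0.85. At 2 Mb or more both were late, one with INADL and ROR1 (chr1:62000001-64750000) at -1.24 and -0.74, the other with EYA4 and EPB41L2 (chr6:130250001-134000000) at -1.17 and -0.81. The strongest 44k domains that were not kept on the 180k array were late on both arrays as well. That with DCDC2 and GPLD1 (chr6:23750001-24500000) read -2.21 and -1.47, and that with EMCN, an endothelial sialomucin gene (chr4:101000001-101500000), read -2.20 and -1.41.

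Borders, the changes of sign between adjacent measured windows, numbered 1285 on the 180k array over all its windows. In 1016 of these (79.1%) the 44k array measured both sides, in 227 a single side and in 42 neither. Of the 1016, a border of the same direction lay within 1 window on the 44k array in 923 (90.8%, 88.9 to 92.5%), and in 745 of these it was at the same window. By linear interpolation between window centres, the point where timing crossed zero differed by a median of 43.8 kb in either direction, from 33.6 kb for steps over 2 to 78.8 kb for steps under 0.5. With windows of 500 kb the median was 55.9 kb. The crossing lay to the right on the 44k array in 462 and to the left in 461 of the 923. These counts pool borders of both directions, so a shift of early domains into late ones, or the reverse, cancels in them. Windows next to kept early-to-late borders averaged 0.45 and -0.71 on the 180k array and 0.44 and -0.43 on the 44k array. A shift by direction was not tested. The 44k array had 1168 borders, and 925 of them (79.2%, 76.8 to 81.5%) were on the 180k array.

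Weak borders were lost most. The step, the mean of up to 2 windows after a border minus that of up to 2 before it, had a median size of 1.45 on the 180k array for kept borders and 0.44 for lost ones. Of borders with a step under 0.5, 86 of 134 were kept (64.2%, 55.4 to 72.3%), of those from 0.5 to 1 163 of 198 (82.3%, 76.3 to 87.4%), of those from 1 to 2 469 of 479 (97.9%, 96.2 to 99.0%), and of those over 2 all 205 (at least 98.2% by its interval). By the shorter domain at the border, 78.6% of 402 borders beside a single-window domain were kept (74.3 to 82.5%), and 99.1% of 452, 97.9% of 141 and all 21 in the larger classes. With windows of 500 kb, 968 of 1019 borders (95.0%, 93.5 to 96.3%) were kept.

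**Figure D4:**
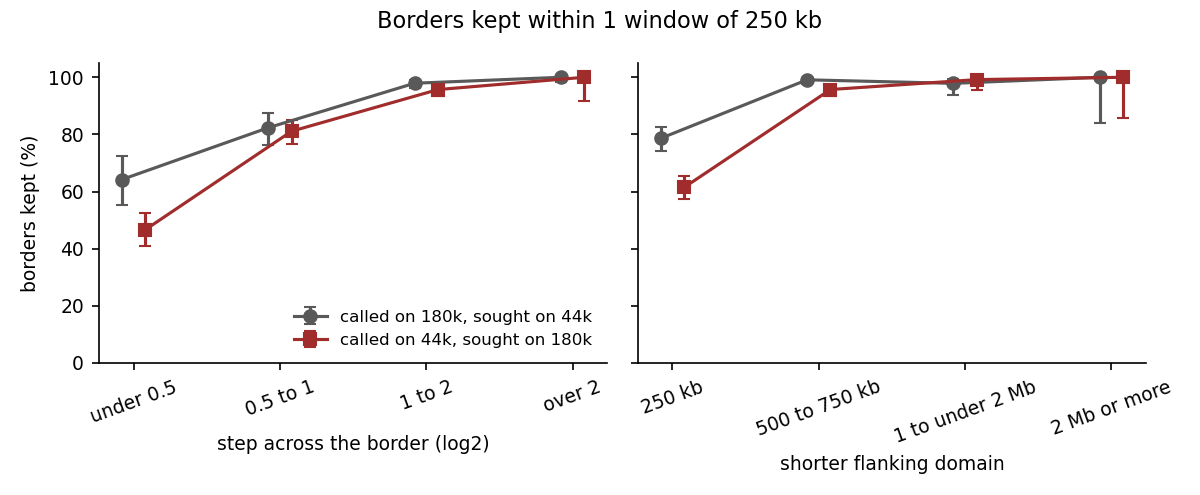
Percentage of borders that the other array held in the same direction within 1 window of 250 kb, by the size of the step (left) and by the shorter flanking domain (right), for borders called on the 180k array and on the 44k array; bars are exact 95% intervals. Of 180k borders, 64.2% with a step under 0.5 and all 205 with a step over 2 were kept.

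By the step on the 180k array, the sharpest kept border was that of chromosome 6 whose probes are printed above, with a step of 3.31 on the 180k array and 2.49 on the 44k array. The next lay on chromosome 1 (within chr1:108000001-109000000) at VAV3, a guanine nucleotide exchange factor gene, with steps of 3.27 and 2.65, and on chromosome 8 (within chr8:30750001-31750000) between NRG1, a growth factor gene, and WRN, a helicase gene, with steps of -3.20 and -2.43. Among lost borders the largest step was at CAST and LNPEP on chromosome 5 (within chr5:96000001-97000000), at -1.38 and -0.68. The next was a late-to-early border at APCDD1 on chromosome 18, whose step of -1.28 and -1.12 ran against its own direction, because the means over up to 2 windows also take in windows beyond the single-window domain. The third was at ALPK1 on chromosome 4, at 1.24 and 0.69. All 3 lay beside a single-window domain.

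**Figure D5:**
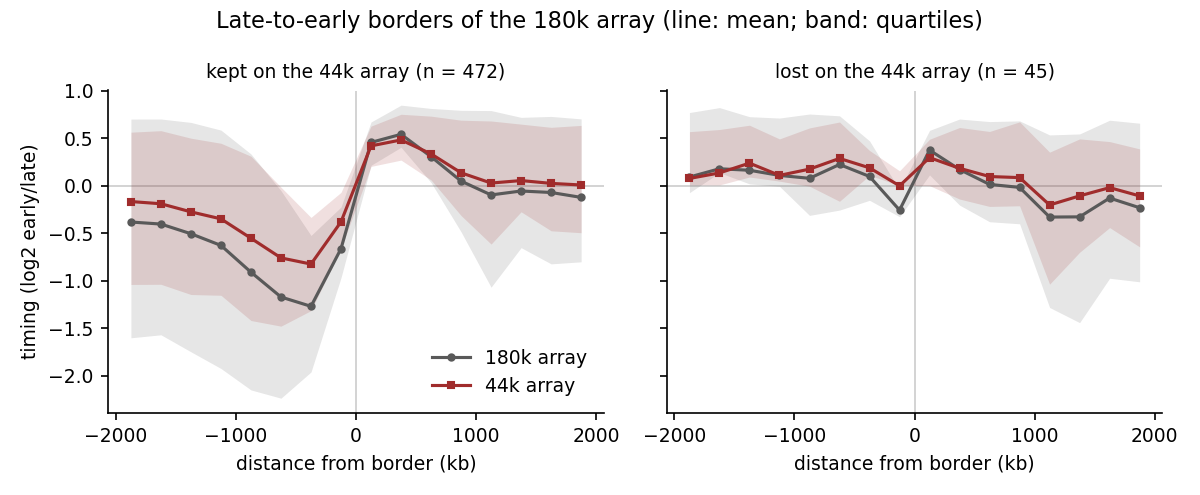
Mean timing (line) and quartiles (band) of both arrays at 250-kb windows around late-to-early borders of the 180k array, for the 472 kept and the 45 lost on the 44k array; the x axis is distance from the border in kb. At kept borders the 44k means went from -0.38 to 0.42 across the border, and at lost ones, chosen for the missing change of sign, from -0.00 to 0.29.

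At late-to-early borders that were kept, the windows next to the border averaged -0.66 and 0.45 on the 180k array and -0.38 and 0.42 on the 44k array. At the 45 lost ones they averaged -0.26 and 0.37 on the 180k array, and the window before them averaged 0.10 over the 32 borders where it was measured. On the 44k array the windows next to the lost borders averaged -0.00 and 0.29, values that describe the choice, since a lost border is one where the 44k array did not change sign.

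Domains smaller than a window of 250 kb were sought on the 180k array in 100-kb windows, which gave 3537 domains. Of the 1372 that spanned up to 200 kb, 332 had a border at both ends. The rest ended at a coverage gap or a chromosome end on at least 1 side, so they can be pieces of longer domains. Of all 1372, 138 (10.1%) held no 44k probe and 403 (29.4%) held at least 3. Of those 403, 319 (79.2%, 74.9 to 83.0%) had the same sign on the 44k array. On the 180k array's own values, 321 of the 362 with at least 3 shared probes (88.7%, 84.9 to 91.7%) had it. Those spots also called the domains, so part of this agreement is built in, and the 362 are another set than the 403. From 300 to 500 kb the 44k array gave the same sign in 750 of 773 (97.0%, 95.6 to 98.1%), and above that in all 700 of 600 kb to 1 Mb and all 648 over 1 Mb. Of the 332 domains of up to 200 kb with a border at both ends, 4 (1.20%) held no 44k probe and 203 (61.1%) held at least 3. Of these 203, 140 (69.0%, 62.1 to 75.3%) kept their sign. The median absolute value on the 180k array was 1.21 over all 1372 and 0.13 over the 332. The median absolute value was 0.14 over the 203 and 0.17 over the 140.

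At the level of genes, 23781 names had a probe on the 180k array and 5454 of them (22.9%) had none on the 44k array. A gene's value was the mean of all its probes on an array, so its values can rest on different probe sets. Of the 9229 genes with 1 probe on the 44k array, 4789 had 1 on the 180k array. Of the 18327 read by both arrays, 2076 (11.3%, 10.9 to 11.8%) had opposite signs. The share fell with the number of 44k probes, from 14.5% of 9229 genes with 1 probe to 10.4% with 2, 6.47% with 3 to 9 and 2.01% of 349 genes with 10 or more. Genes with 10 or more probes were also far from zero, with a median of -1.76 on the 180k array against 0.34 for genes with 1 probe.

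Giant genes, very long genes that include fragile sites, were all read by the 44k array with a median of 25 probes. None of the 36 had opposite signs, which by counting allows up to 9.74%. The share was 11.3% of all genes and 2.01% of genes with 10 or more 44k probes. This count of 0 held in each of the 7 settings of background and centring. Their median was -2.08 on the 180k array and -1.33 on the 44k array, and all 36 were less late on the latter, by 0.28 to 0.97. Of all 18327 genes, most of them early, 10266 were higher on the 44k array. The 349 genes with 10 or more 44k probes, 293 of them late, also had a higher median there, at -1.76 and -1.14. The shift is thus not particular to giant genes. All 36 were less late in each of those settings too, with a median difference of 0.53 to 1.54. CNTNAP2, a neuronal adhesion gene with 187 and 49 probes, read -2.61 and -1.86. AGBL4 read -2.59 and -1.78, CNTN4 -2.58 and -1.61, and CNTN5 -2.48 and -1.71.

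Genes of DNA replication were mostly early, 44 of 49 on the 180k array, and PRIM1, a primase subunit, had no 44k probe. Opposite signs were found in 3 of 48 (6.25%, 1.31 to 17.2%, an interval that includes the 11.3% of all genes), and the count ranged from 1 with an offset of 0 or mean centring to 8 with the deposited log ratio. MCM2, a subunit of the replicative helicase, read 0.34 and -0.06, MCM4 of the same complex 0.20 and -0.01, and POLA2, a subunit of DNA polymerase alpha, 0.03 and -0.28. The signs of POLA2 were opposite in 6, of MCM2 in 4 and of MCM4 in 1 of the 7 settings. The 3 furthest from zero were late and kept their sign. ORC4 of the origin recognition complex read -2.60 and -1.88, DBF4, the activator of the CDC7 kinase, -2.27 and -1.44, and the clamp loader subunit RFC3 -2.08 and -1.56. C15orf42, a replication initiation factor also named TICRR, was the most early on the 180k array, at 1.34, and read 1.22 on the 44k array.

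Blood lineage genes had opposite signs in 2 of 31 (6.45%, 0.791 to 21.4%, beside 11.3% of all genes), and SLC4A1, the red cell anion exchanger, had no 44k probe. The count ranged from 0 with mean centring to 7 with the deposited log ratio. The genes were HBB, whose single probe is printed above, and ZBTB7A, a repressor of fetal globin, at -0.01 and 0.20, opposite in 3 of 7 settings. HBE1, the embryonic globin of the same cluster as HBB, read 0.79 and 0.85 over the same 2 probes. The scavenger receptor gene CD36 read -2.28 and -1.41, the transcription factor genes FLI1 -1.69 and -1.07 and BCL11A -1.30 and -0.94, and the lymphoid factor gene IKZF1 1.0 and 0.93.

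The olfactory receptors, small genes in clusters, were covered least of the 5 lists. Of 52 on the 180k array 23 (44.2%) had no 44k probe, beside 22.9% of all genes. Of the 52, 44 had a single 180k probe. So had 69.4% of all genes with no 44k probe and 26.1% of genes with a 44k probe. The 22.9% is thus not a share among genes with as few probes. Of the 29 with a 44k probe, 8 changed sign (27.6%, 12.7 to 47.2%), beside 11.3% of all genes. That interval includes the 14.5% of genes with 1 probe on the 44k array. Of the 8, 7 were read by a single probe on both arrays. Among these 8, OR10H1 moved most, from 0.58 to -0.43, followed by OR11A1 from -0.17 to 0.56. OR9Q1, with 11 and 3 probes, read -0.38 and 0.12, with opposite signs in all 7 settings. The count of 8 ranged from 4 without background correction to 9 with the deposited log ratio. OR2L13 and OR8U8, far from zero, read -2.44 and -1.57, and -2.43 and -1.82.

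All 30 genes of histone cluster 1, which encode replication-dependent histones, were read by both arrays, 28 of them by a single probe. Opposite signs were found in 4 (13.3%, 3.76 to 30.7%), near the 11.3% of all genes and the 14.5% of genes with 1 probe. HIST1H1E read -0.36 and 0.04, HIST1H1D -0.17 and 0.15, HIST1H2BE -0.00 and 0.22, and HIST1H2AM 0.00 and -0.20. The count ranged from 2 with loess to 8 with the deposited log ratio. The cluster median was 0.69 on the 180k array and 0.50 on the 44k array.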

How the data were processed

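Both K562 arrays were deposited as tables of single spots. Per the file headers, the scanner software was Agilent Feature Extraction 11.5.1.1, run under a copy-number protocol. The submitters' processing notes name version 9.1. The intensity columns used were the mean spot signal and median local background of each channel, which the deposited tables give before dye normalisation. The deposited log10 ratio, late over early and made by the scanner software from background-subtracted, dye-normalised signals per the file headers, served as an alternative after its sign was turned. Positions (hg19) and gene names come from the deposited tables; for shared probes the names of the 180k table were used, since 13.3% were named differently in the other.

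Control spots and spots flagged as saturated, non-uniform or excluded were dropped. The normexp method of limma 3.58.1 (R 4.3.3) removed background with an offset of 50, and no loess was applied, because true timing differences involve most probes. Repeated probes were averaged, and each array was centred on the median of the 47694 shared autosomal probes. The offset pulls ratios of dim spots toward 0. Windows, domains and borders follow the rules stated with the results and were tested on simulated profiles. With 1 array per group no test was made. Exact (Clopper-Pearson) 95% intervals from scipy 1.17.1 cover counting only, and neighbouring windows are not independent.

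The comparators were the 180k array reduced to shared probes, the old-sorting K562 array and the 2 automated U2OS arrays; the 2 manual U2OS arrays were not used. Regions named are the longest domains, the strongest lost domains per size class, the borders with the largest steps and the windows with the largest differences; genes named are members of 5 lists with opposite signs or far from zero, and the control genes BMP1 and DPPA2, which were added. The comparison, the gene lists and the rules were chosen with earlier results of these data known. Alternatives covered background, source of the ratio, loess, dim probes, probe set, centring, window size, probe minimum, smoothing, a dead band, overlap and border tolerance. Domains with a border at both ends, windows with at least 1 probe on the 44k array, coverage of full-length domains, and widths and gene lists by setting were added after seeing the data.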

Additional observations from a re-analysis of the deposited data

How the results depend on the processing

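With 1 array per group the results carry no threshold, and a share was counted as moved when an alternative fell outside the exact 95% interval of its main value, or a number of domains when it changed by over 1.5 times. Of 241 alternative values over 19 settings, 93 were within these limits and 148 were not; the cause of each move was not tested except where the setting itself fixes it. No paired analysis was possible because each group compared holds 1 array. Probe brightness and spacing limit what the 44k array can show: a window there rests on a median of 5 probes, and few have a red signal well above background.

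Values follow in this order where they moved: windows with opposite sign, windows that differ by at least 1, 180k domains kept on the 44k array in all and by rising size class, 180k borders kept, 44k domains kept on the 180k array, 44k borders kept. Without background correction opposite windows were 6.70% and differing windows 1.62%, domains kept 91.0% in all, 80.9% at 250 kb and 93.8% at 500 to 750 kb, borders 87.9%, and 44k domains 82.4% and borders 73.0%. With a normexp offset of 0 differing windows were 7.29%, domains kept 94.6% and those of 1 to under 2 Mb 98.4%. The deposited log ratio, which is exactly 0 for 14.5% of the 44k spots, gave 8.46% opposite and 31.6% differing windows, domains kept 87.5% in all, 74.6% at 250 kb, 90.4% at 500 to 750 kb and 91.8% at 2 Mb or more, borders 82.4%, and 44k domains 79.4% and borders 68.6%. Loess gave domains kept 94.7% in all, 98.0% at 1 to under 2 Mb and 98.6% at 2 Mb or more, and 44k domains 89.2% and borders 82.0%. Without probes dim in both channels opposite windows were 6.23%, differing windows 3.08%, domains of 2 Mb or more 91.7%, and 44k domains 83.1% and borders 73.1%. On shared probes alone opposite windows were 4.16%, differing windows 0.819%, domains of 250 kb 89.3%, and 44k domains 90.2% and borders 82.2%.

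Centring on the mean gave 3.39% opposite and 1.07% differing windows, domains kept 95.3% in all, 88.4% at 250 kb, 99.0% at 1 to under 2 Mb and 99.6% at 2 Mb or more, borders 92.8%, and 44k domains 92.3% and borders 86.8%. Centring on the median of each array's own probes gave 3.90% opposite and 0.889% differing windows, domains kept 96.1% in all and 89.9%, 98.1%, 99.2% and 98.6% in the 4 size classes, borders 94.1%, and 44k domains 90.6% and borders 83.5%. Scaling both arrays to the same median absolute deviation left 0.154% of windows differing by at least 1.

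Windows of 500 kb gave 3.83% opposite windows, 1169 and 1231 domains, 87.4% kept at 500 to 750 kb, borders 95.0%, and 44k domains 89.4% and borders 89.7%. With at least 5 probes per window differing windows were 1.86%, domains of 250 kb 89.6%, borders 84.1%, and 44k domains 90.7% and borders 73.5%. A running median over 3 windows gave 4.29% opposite and 3.33% differing windows, 91.8% of 250-kb domains, 91.7% of 500 to 750 kb and 99.3% of 2 Mb or more kept, and 44k domains 93.3% and borders 87.4%. With a dead band of 0.25 domains kept were 90.9% in all, 93.0% at 500 to 750 kb and 92.6% at 1 to under 2 Mb, borders 97.5%, and 44k domains 77.5% and borders 97.0%. With at least 1 probe on the 44k array, added after seeing the data, differing windows were 7.10%, domains kept 91.4% in all, 68.8% at 250 kb and 94.7% at 500 to 750 kb, borders 93.7% and 44k domains 77.9%.

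A reciprocal overlap of 80% kept 78.3% of the 180k domains, 78.1%, 74.5%, 83.9% and 78.7% by size class, and 73.0% of the 44k domains. By the sign of the mean alone 96.2% were kept, 87.9%, 98.4%, 100% and 100% by size class, and 92.4% of the 44k domains. A border tolerance of 0 windows kept 73.3% of the 180k and 63.8% of the 44k borders, and a tolerance of 2 windows 92.6% and 81.8%. Domains with a border at both ends numbered 596 and 725, of which 87.2% and 72.8% were kept; of the 180k ones 62.0% at 250 kb and 93.6% at 500 to 750 kb. The smallest class had the lowest kept share of the 180k domains in every setting that has it except the overlap of 80%, the running median, where it lay just above the next class, and the windows of 500 kb, which have no such class.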
